A study of Mus musculus with 24 samples.

Results

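The nuclear genes of the mitochondrial respiratory chain were followed in the hippocampus of neonatal mice given morphine and stress. Members were all probes, apart from array controls, whose gene name on the array began with Nduf, Sdh, Uqcr, Cox or Atp5 and continued as a subunit name of complexes I to V. This rule took 114 probes of 81 genes, out of 55681 probes with 36163 gene names. Complexes were assigned by the start of the gene name alone, so single members may be misplaced. Complex I held 44 probes of 36 genes, complex II 6 of 4, complex III 15 of 8, complex IV 21 of 17 and complex V 28 of 16. No measured value entered the choice.

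RNA came from both hippocampi of single C57BL/6 pups, all labelled male and killed on P9, on 1-colour Agilent arrays, with 5 arrays per group. Control pups (Con) stayed untreated with the dam under normal housing. The MS2 and MS5 groups received morphine at 2 or 5 mg/kg subcutaneously from P5, in repeated daily injections, and both doses came together with daily isolation from the dam and apnea episodes. Each comparison with Con therefore spanned morphine, injection and stress, which cannot be told apart here, whereas MS5 against MS2 differed in the dose alone. Litters were not given for single pups, so p-values measure the spread between these arrays. Values are log2 normalized intensities, and a difference of 1 is a doubling. Because the tissue was bulk hippocampus, fewer cells of a type and less RNA per cell cannot be told apart.

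The respiratory chain makes ATP at the inner mitochondrial membrane. Complex I takes electrons from NADH and complex II from succinate, complex III passes them from ubiquinol to cytochrome c, and complex IV hands them to oxygen. Complexes I, III and IV pump protons, and complex V (ATP synthase) uses the gradient to make ATP. Most subunits are nuclear genes, a small core is encoded by mitochondrial DNA, and some subunits of complex IV have separate isoforms for muscle, testis or hypoxic tissue. Firing neurons depend on this supply.

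Some arrays stood apart. All 15 markers of hippocampal neurons were well above background on every array. Their summed level was 17.88 to 18.25 in Con and 18.00 to 18.23 in MS5. In MS2 it was 17.58 on replicate 4 and 17.96 to 18.28 on the others. Against Con, 11 of the 15 lay below 0 in MS2 (51% of all probes) and 11 in MS5 (49.8% of all probes). Of these markers 0 passed an unadjusted limma p of 0.05. The summed level of 20 choroid plexus markers was 18.11 to 18.73 in Con and 18.21 to 18.59 in MS2. In MS5 it was 14.53 on replicate 14, 16.46 on replicate 9 and 17.89 to 18.41 on the others. Of these markers 17 were lower in MS5 than in Con at an unadjusted limma p under 0.05 (2.43% of all probes), and no marker was at background. Several of them, among them Aqp1, Calml4 and Cldn2, were reported as fallen in MS5 by the study of these same arrays. The count is therefore not independent of these data. MS5 replicate 9, labelled male like the rest, carried Xist, the transcript of the inactive X, at 11.34, while the other 14 averaged 5.98. MS2 replicate 5 had a median spot signal of 58.2, against 121 to 154 elsewhere. The arrays lay on 2 slides, each of which held all 3 groups. Results that rest on these arrays are given with and without them.

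The probe sequences behind the members that passed a test are shown first, because the array carried several versions of the same gene and these did not behave alike. Atp5l encodes subunit g of ATP synthase, a small membrane protein at the dimer interface. Its 6 probes were placed by the array files on chromosome 9 of mm9, minus strand. Probe A_55_P2002602 (chr9:44721352-44721411) is the one that was lower in MS5. Capitals in it mark positions at which an overlapping probe differs, and capitals in the others mark their own differing bases.
Atp5l A_55_P2002602: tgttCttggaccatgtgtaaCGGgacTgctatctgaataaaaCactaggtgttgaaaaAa
Atp5l A_55_P2000909: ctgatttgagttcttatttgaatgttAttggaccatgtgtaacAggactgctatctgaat
Atp5l A_55_P2024021: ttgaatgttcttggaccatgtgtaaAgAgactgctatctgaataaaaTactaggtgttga
Atp5l A_55_P2026669: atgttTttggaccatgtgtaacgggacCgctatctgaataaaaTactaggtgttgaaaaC
Atp5l A_55_P2067682: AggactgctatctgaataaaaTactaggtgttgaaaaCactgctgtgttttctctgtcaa
Atp5l A_55_P2048656: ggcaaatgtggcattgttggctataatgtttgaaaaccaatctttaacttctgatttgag

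Counted from the first base of A_55_P2002602, probe A_55_P2000909 overlapped it by 38 bases with C5A and G22A. A_55_P2024021 shared 55 bases with C21A, G23A and C43T. A_55_P2026669 shared 59 bases with C5T, T27C, C43T and A59C, and A_55_P2067682 shared 39 with G22A, C43T and A59C. The last probe, A_55_P2048656, did not overlap. The called probe and the probes that overlap it thus cannot match the same transcript base for base. Where the differing bases come from was not tested, so which transcript each of these probes reads is uncertain.

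Ndufb11, an X-linked accessory subunit of complex I, had 3 probes. A_55_P2073582 (chrX:20194630-20194689), lower in MS5, shared no stretch with the other probes, which lay about 2 kb away (chrX:20192448-20192507 and chrX:20192453-20192512) and overlapped each other. Ndufa11 (chr17:56857241-56857300), an accessory complex I subunit, and Uqcrfs1 (chr13:30632363-30632422), the Rieske iron-sulfur protein of complex III, had a single probe each. No base is capitalized in these, since none was singled out.
Ndufb11 A_55_P2073582: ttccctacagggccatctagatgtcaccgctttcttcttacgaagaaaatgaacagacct
Ndufb11 A_55_P1980566: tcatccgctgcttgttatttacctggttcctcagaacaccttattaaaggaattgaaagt
Ndufb11 A_55_P2012206: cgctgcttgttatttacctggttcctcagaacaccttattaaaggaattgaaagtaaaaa
Ndufa11 A_51_P279854: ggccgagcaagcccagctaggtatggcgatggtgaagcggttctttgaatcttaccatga
Uqcrfs1 A_51_P361951: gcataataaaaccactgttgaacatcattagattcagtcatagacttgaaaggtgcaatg

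Nearly all members were measured well. Of the 114 probes, 113 were well above background on all 15 arrays and none was saturated. The exception was Cox8c, the testis isoform of subunit 8, which was not well above background on any array. The residual SD between arrays had a median of 0.0855 over the members and 0.110 over all probes.

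The first question was whether morphine at 2 mg/kg with stress left these genes at another level than in untreated pups. None of the 114 probes passed an unadjusted limma p of 0.05 in MS2 against Con, where 2.05% of all probes were higher and 2.12% lower (4.17% in all). After Benjamini-Hochberg adjustment limma called 0 members and 0 of all probes, with a smallest adjusted p of 0.970. The median difference was 0.0099, a fold of 1.01, against -0.0017 over all probes. The differences were above 0 at 69 members (49% of all probes) and below 0 at 45 (51% of all probes). For 112 of 114 probes the 95% interval of the difference lay within 0.32 either way on the log2 scale, compared with 80.1% of all probes. The exceptions were Cox6a2 and Cox6b2. Leaving out single arrays gave 0 to 2 probes past p, the 2 without MS2 replicate 3.

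At 5 mg/kg the picture was close to this. In MS5 against Con 3 members passed the unadjusted p, 1 higher (1.47% of all probes) and 2 lower (2.43% of all probes), which is 2.63% of the members against 3.9% of all probes. After Benjamini-Hochberg adjustment over all probes, limma called 0 members and 0 probes of any kind, with a smallest adjusted p of 1.00 among the members and 0.635 among all probes. The median difference was -0.0159 (fold 0.989) against 0.0004 over all probes, with 43 members above 0 (50.2% of all probes) and 71 below (49.8% of all probes). The interval lay within 0.32 for 111 of 114 probes, compared with 80.9% of all probes. Cox6a2, Cox6b2 and Cox7c probe A_55_P1999841 were the exceptions. No member passed 1.5-fold with an unadjusted p under 0.05 in any comparison, where 0.0233% of all probes did in MS2 against Con, 0.228% in MS5 against Con and 0.129% in MS5 against MS2.

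MS5 against MS2 set the doses side by side. A single member, Uqcrfs1, passed the unadjusted p, in the lower direction, against 1.72% of all probes higher, 2.25% lower and 3.97% in all, and limma called 0 members after adjustment (smallest adjusted p 1.00). The median difference was -0.0236 (fold 0.984) against 0.0012 over all probes, with 31 members above 0 (50.7% of all probes) and 83 below (49.3% of all probes). The interval lay within 0.32 for 111 of 114 probes, compared with 81.7% of all probes. Cox6a2, Cox6b2 and Cox8b were the exceptions.

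**Figure D1:**
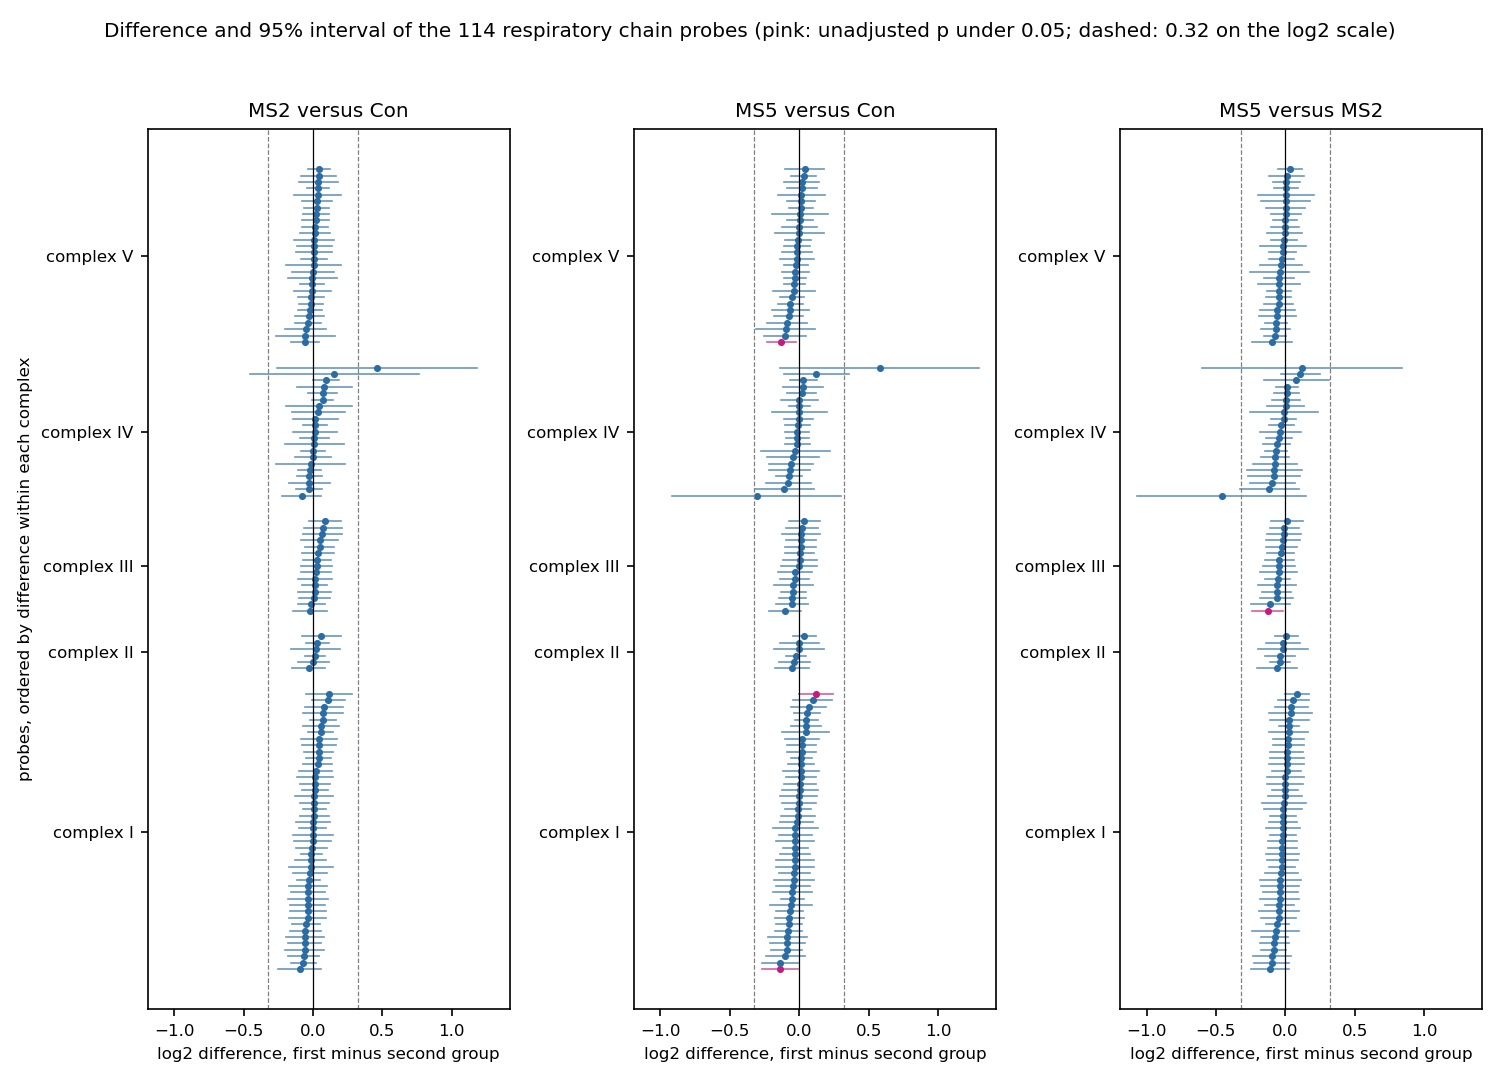
Each point is a probe of the respiratory chain and each line its 95% limma interval, on a log2 axis, for the 3 comparisons and by complex. Pink marks an unadjusted p under 0.05 (0, 3 and 1 probes) and dashed lines mark 0.32 either way. All but 2 or 3 intervals per panel lie between the dashed lines.

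In complex I, the largest of the chain, the median difference from Con was -0.0015 in MS2 and -0.0266 in MS5. Ndufa11 was 13.34, 13.43, 13.34, 13.37 and 13.35 on the Con arrays. It was 13.47, 13.40, 13.64, 13.52 and 13.37 in MS2, and 13.55, 13.57, 13.35, 13.41 and 13.56 in MS5. The 3 highest MS5 arrays lay above all of Con, whereas the other 2 lay within its range. The difference of MS5 from Con was 0.12 (95% interval 0.00 to 0.24, limma p = 0.0483, adjusted p = 1.00, exact permutation p = 0.0714), and without MS5 replicate 9 or 14 it was 0.10 and no longer past the threshold. It was also lost without MS5 replicate 8, without Con replicate 15, 17, 18 or 19, and with slide as a block, in 14 of 21 alternatives in all.

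The Ndufb11 probe A_55_P2073582 was 8.18, 8.11, 8.17, 8.32 and 8.32 in Con. MS2 had 8.11, 8.13, 8.23, 8.24 and 8.19, and MS5 had 8.22, 7.94, 8.16, 8.10 and 7.98. Only MS5 replicates 9 and 14, the arrays poor in choroid plexus markers, and replicate 13 fell below the range of Con, and the groups overlapped. The difference of MS5 from Con was -0.14 (interval -0.27 to -0.01, limma p = 0.0375, adjusted p = 1.00, exact permutation p = 0.0873). Without both replicates 9 and 14 it was -0.06 and not past the threshold, as was so without either of them, without Con replicate 18 or 19, and with slide as a block, in 11 of 21 alternatives in all. Replicate 9, the lowest array for this X-linked gene, was also the one that carried Xist at 11.34. The part of the choroid plexus or of the pup's sex in the difference was not tested. The other Ndufb11 probes, near 15.8 and 15.4 in Con, differed by -0.09 (interval -0.23 to 0.06) and -0.05 (interval -0.13 to 0.03).

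Neither core subunit of complex I named here passed a test. Ndufs1, the large iron-sulfur subunit, had means of 14.94 ± 0.08 in Con, 14.95 ± 0.09 in MS2 and 14.95 ± 0.11 in MS5 (SD, n = 5 each). Ndufv1, which binds NADH and FMN, had 15.88 ± 0.07, 15.87 ± 0.08 and 15.80 ± 0.05 in that order. Its difference of MS5 from Con was -0.08 with an interval of -0.18 to 0.02. Ndufv3 encodes an accessory subunit beside the NADH site. Its dimmer probe A_51_P140211, near 9.73 in Con, just missed the threshold in MS5 against Con at -0.13 (interval -0.27 to 0.00, limma p = 0.051, exact permutation p = 0.0635). The brighter Ndufv3 probe A_55_P2184180, near 16.04 in Con, differed by -0.07 (interval -0.18 to 0.04). X-linked Ndufa1 differed by 0.06 (interval -0.03 to 0.14) in MS2 and -0.03 (interval -0.12 to 0.06) in MS5. Ndufb5 probe A_51_P201904 was higher on every MS5 array (12.39 to 12.48) than on any MS2 array (12.31 to 12.39), with a difference of 0.08 (exact permutation p = 0.00794, the smallest possible, limma p = 0.055). The second probe of Ndufb5 differed by -0.02. Groups without overlap occurred at 2 members in MS5 against MS2, 1 in each direction, and at 0.239% of all probes higher and 0.383% lower (0.621% in all). MS5 and Con overlapped at every member, against 0.309% of all probes apart in the higher and 0.519% in the lower direction (0.828% in all).

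Complex II is the only complex without a mitochondrially encoded subunit. Its 6 probes lay between -0.0505 and 0.0368 in MS5 against Con, with a median of -0.0115. Sdha, the flavoprotein that oxidizes succinate, had means of 14.40 ± 0.04, 14.41 ± 0.04 and 14.38 ± 0.03 in Con, MS2 and MS5 (SD, n = 5 each). The brighter probe of Sdhb, the iron-sulfur subunit, differed by -0.03 (interval -0.14 to 0.07) in MS5 against Con.

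Complex III held the member that passed between the doses. Uqcrfs1 was 14.97, 14.97, 14.91, 15.12 and 15.02 in MS2. In MS5 it was 14.80, 14.86, 15.03, 14.88 and 14.77, and Con had 14.98, 14.93, 14.91, 15.04 and 15.00. On 4 of 5 MS5 arrays it lay below every MS2 and Con array, and replicate 12 was the exception. The difference of MS5 from MS2 was -0.13 (interval -0.24 to -0.02, limma p = 0.0289, adjusted p = 1.00, exact permutation p = 0.0714). Leaving out MS2 replicate 5, the dim array, or MS5 replicate 14 gave -0.10 and ended the call, which was also lost without MS2 replicate 7 or MS5 replicate 8 or 9 and with only the 2 groups compared, in 11 of 22 alternatives in all. Against Con the difference of MS5 was -0.10 (interval -0.22 to 0.01). The 15 complex III probes read 8 genes. In MS5 against MS2, 14 were lower (49.3% of all probes, 72.8% of members), with a median of -0.0484. In MS2 against Con, 13 were higher (49% of all probes, 60.5% of members), with a median of 0.026. These comparisons share the MS2 arrays. The median deviation of the complex III probes from their means over the 15 arrays was lowest on MS5 replicate 14 (-0.1021). It was highest on MS2 replicate 5, the dim array (0.0653). Uqcrc1, a core protein, differed by 0.07 (interval -0.06 to 0.21) in MS2 and 0.01 (interval -0.12 to 0.15) in MS5.

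**Figure D2:**
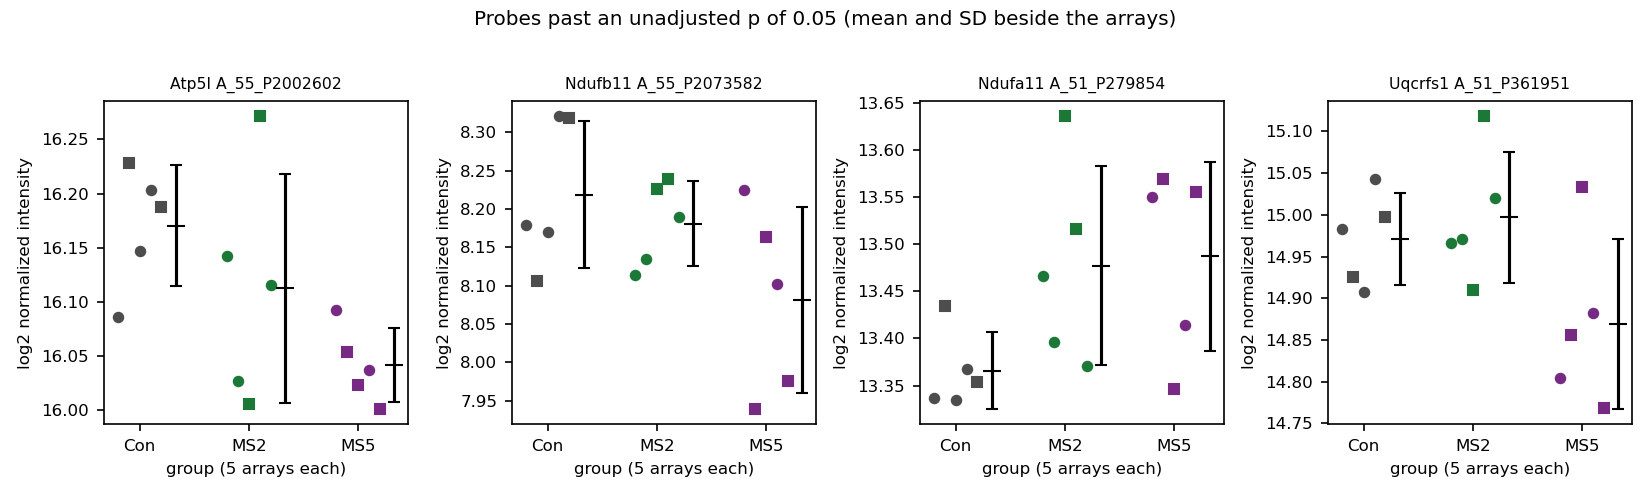
Log2 normalized intensity of the 4 probes past an unadjusted p of 0.05, by group, with each of the 5 arrays as a point (circles slide 1, squares slide 2) and the mean and SD beside them. The axes do not start at 0. In each panel the groups overlap, and the differences are 0.12 to 0.14 in size.

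Complex IV held the widest spread, and it lay in the tissue isoforms. Cox6a2 is the heart and skeletal muscle form of subunit 6a, and Cox6a1 is the form found in most tissues. Cox6a2 was 10.43, 9.95, 10.32, 10.37 and 10.73 in Con. MS2 had 10.52, 10.16, 12.15, 10.55 and 10.73, and MS5 had 11.91, 10.60, 10.50, 11.10 and 10.61. MS2 replicate 4 and MS5 replicate 8 stood above the rest, and MS5 replicate 13 also lay above Con, while the remaining arrays lay within the range of Con or at its upper end. The difference from Con was 0.58 in MS5 (interval -0.14 to 1.30, limma p = 0.105, exact permutation p = 0.0556) and 0.46 in MS2 (interval -0.26 to 1.18). Without MS5 replicate 8 the former was 0.34, and without MS2 replicate 4 the latter was 0.13. Within slide 1, which held MS5 replicates 8 and 13, MS5 exceeded Con by 1.13 and passed the unadjusted test, and within slide 2 the difference was 0.23 and did not.

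Of the arrays high in Cox6a2, MS2 replicate 4 and MS5 replicate 8 were also the highest of their groups in some markers of neighbouring tissue and other cells. The summed level of the hypothalamus and thalamus list was 12.66 to 12.95 in Con, 15.02 on MS2 replicate 4 and 12.64 to 12.88 on the other MS2 arrays. In MS5 it was 13.85 on replicate 8, 13.74 on replicate 12, 13.64 on replicate 14, 12.55 on replicate 9 and 12.90 on replicate 13. Cox6a2 did not follow this order, with 11.10 on replicate 13 and 10.50 and 10.61 on replicates 12 and 14. Of its 12 markers, 10 lay above 0 in MS5 against Con (50.2% of all probes). Of these, 4 passed an unadjusted limma p of 0.05 (1.47% of all probes), and Otp was not well above background on any array. The list holds Avp and Trh, which the study of these same arrays reported as risen in MS5, so this count is not independent of these data. GABAergic interneuron markers (10 of 10 measured) summed to 16.62 to 17.25 in Con, 16.92 to 17.49 in MS2 and 16.82 to 17.46 in MS5, highest on MS2 replicate 4 and MS5 replicate 8. Oligodendrocyte markers (12 of 12 measured) ran from 16.34 to 17.34, 16.53 to 17.52 and 16.42 to 17.46 in that order, and the same arrays were highest in their groups. Striated muscle markers, whose form of the subunit Cox6a2 is, summed to 11.02 to 11.36 on all arrays. None of these lists had a marker at an adjusted p under 0.05, and their part in the Cox6a2 values was not tested.

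Cox6b2, the testis form of subunit 6b, was 10.04, 10.66, 10.51, 10.08 and 10.19 in Con. It was 10.45, 10.48, 11.52, 9.87 and 9.92 in MS2, and 10.27, 9.41, 10.55, 10.10 and 9.62 in MS5. The same MS2 replicate 4 was highest of all arrays, and MS5 replicates 9 and 14 were the lowest. The difference of MS5 from MS2 was -0.46 (interval -1.07 to 0.15), and -0.19 without MS2 replicate 4. The ubiquitous form Cox6b1 was 13.79 to 13.84 in Con and 13.88 to 13.97 in MS2, so that these groups did not overlap. Its difference was 0.09 (interval -0.00 to 0.19, exact permutation p = 0.00794, limma p = 0.0573), and it was the only member without overlap in that comparison, where 0.309% of all probes lay apart in the higher direction, 0.393% in the lower and 0.702% in all. In MS5, where Cox6b1 ran from 13.71 to 13.97, it overlapped with both.
Cox6a1 A_51_P311540: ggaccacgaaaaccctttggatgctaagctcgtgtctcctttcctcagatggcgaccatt
Cox6a2 A_51_P509997: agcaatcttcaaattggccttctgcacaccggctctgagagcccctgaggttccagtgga
Cox6b1 A_51_P448032: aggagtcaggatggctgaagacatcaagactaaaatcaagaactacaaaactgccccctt
Cox6b2 A_51_P300506: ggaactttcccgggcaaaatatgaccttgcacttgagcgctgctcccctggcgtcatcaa
These probes are shown because the isoforms behaved differently. They lie on mm9 at chr5:115795726-115795785, chr7:135349160-135349219, chr7:31409575-31411071 (across a splice junction) and chr7:4703488-4703547, in that order. Neither pair shared an ungapped stretch that could be aligned, so the tissue form and the common form were read by unrelated sequences.

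**Figure D3:**
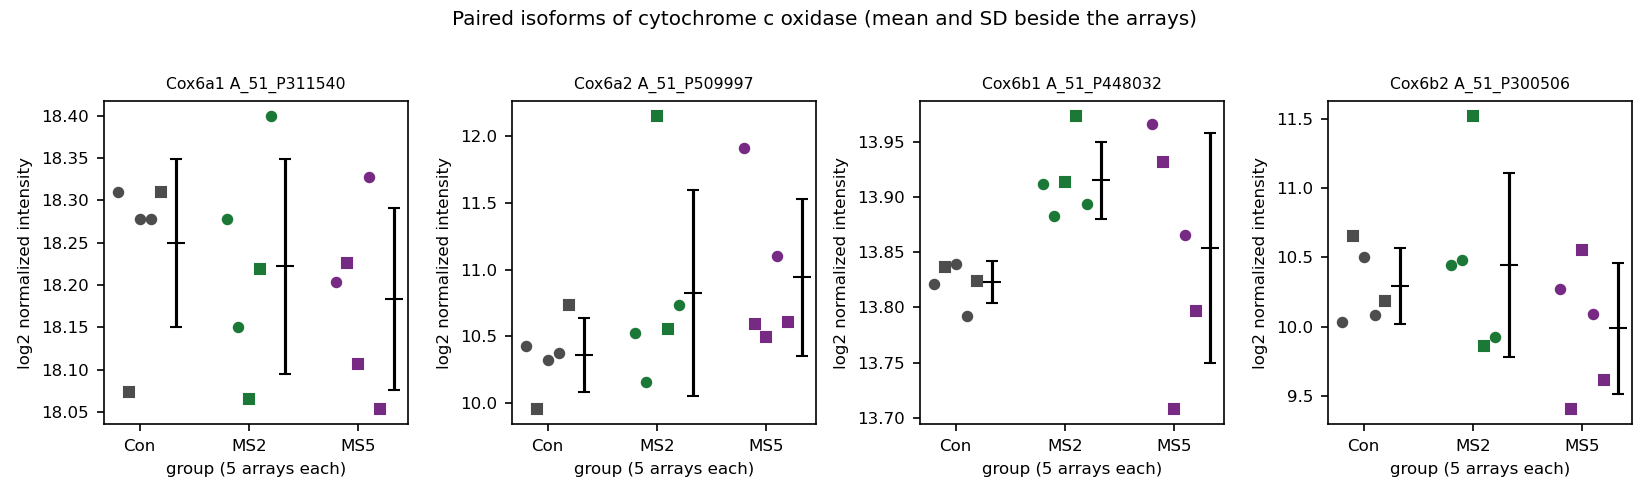
Log2 normalized intensity of the isoform pairs Cox6a1 and Cox6a2, and Cox6b1 and Cox6b2, on each array by group (circles slide 1, squares slide 2), with mean and SD beside the 5 arrays. The axes do not start at 0 and differ between panels. MS2 replicate 4 is highest for Cox6a2 at 12.15 and for Cox6b2 at 11.52.

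None of the other tissue isoforms passed the limma test. Cox8b and Cox7b2 were dim, with means of 6.83 and 7.01 in Con, and the processing shrinks differences of dim probes. Cox4i2, the isoform of lung and of hypoxic cells, differed by -0.08 (interval -0.22 to 0.06) in MS2 and 0.03 (interval -0.12 to 0.17) in MS5. The muscle forms Cox7a1 and Cox8b differed from Con in MS5 by -0.04 (interval -0.23 to 0.15) and -0.11 (interval -0.32 to 0.10). Cox7b2, the testis form of subunit 7b, differed by -0.03 (interval -0.28 to 0.22). Among the common subunits, Cox4i1, a regulatory subunit that binds ATP, had 17.12 ± 0.04, 17.10 ± 0.04 and 17.11 ± 0.06 in Con, MS2 and MS5, and Cox5a had 16.56 ± 0.04, 16.57 ± 0.10 and 16.58 ± 0.06 (SD, n = 5 each). X-linked Cox7b was 0.07 higher in MS2 than in Con (interval -0.01 to 0.15, limma p = 0.0725, exact permutation p = 0.0238) and 0.00 in MS5 (interval -0.08 to 0.08). Cox7c was discordant between probes. A_55_P1999841 differed by 0.12 in MS5 and A_55_P2081005 by -0.08, neither past the test.

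In complex V the Atp5l probe A_55_P2002602 was 16.09, 16.23, 16.15, 16.20 and 16.19 in Con. MS2 had 16.14, 16.03, 16.01, 16.27 and 16.12, and MS5 had 16.09, 16.05, 16.02, 16.04 and 16.00. All but replicate 8 of MS5 lay below all Con arrays. The difference of MS5 from Con was -0.13 (interval -0.23 to -0.03, limma p = 0.018, adjusted p = 1.00, exact permutation p = 0.0159), the smallest p of any member in this comparison. It stayed past the threshold without any single array, and was -0.12 and not past it without both MS5 replicates 9 and 14. The call held with slide as a block and was lost in 6 of 21 alternatives. The other 5 Atp5l probes, 4 of which overlap it, differed by -0.09 to 0.02, and the mean of all 6 gave -0.06 and did not pass. As the printed bases show, each of the overlapping probes differs from A_55_P2002602 at 2 to 4 positions.

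The genes of the catalytic head of ATP synthase did not pass the limma test. Atp5b, the catalytic beta subunit, had 17.33 ± 0.06 in Con, 17.29 ± 0.06 in MS2 and 17.30 ± 0.07 in MS5 (SD, n = 5 each). Atp5a1, the alpha subunit, was 16.23 to 16.35 in MS2 and 16.12 to 16.23 in MS5, without overlap at full precision. Its difference was -0.07 (interval -0.15 to 0.00, exact permutation p = 0.00794, limma p = 0.0571), and MS5 differed from Con by -0.03 (interval -0.11 to 0.05). Atp5j, coupling factor 6 of the stalk, differed between MS5 and MS2 by -0.07 (exact permutation p = 0.0238, limma p = 0.0887).

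Single arrays carried part of the small negative medians in MS5. For each array, the deviation of each member from its mean over the 15 arrays was taken. The median deviation was -0.0367, -0.0223, 0.0127, 0.0078 and 0.0573 in Con. It was 0.0211, -0.04, 0.0131, 0.0394 and 0.0172 in MS2, and 0.0214, -0.015, 0.007, -0.0039 and -0.0788 in MS5. Groups overlapped throughout. On MS5 replicate 14 only 7 of 114 members lay above their mean, and 29 had their lowest value of all arrays there. This array also had the lowest choroid plexus level (14.53), and the part of that tissue in it was not tested. Without it the median difference of MS5 from Con was -0.0001, and from MS2 -0.0111. Without both MS5 replicates 9 and 14 these were 0.0067 and -0.007. Leaving out Con replicate 19, the highest Con array, gave -0.0025 for MS5 against Con. MS2 replicate 5, the dim array, held the highest value of all arrays for 40 members.

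The medians were also taken within each slide. Within slide 1 the median difference of MS5 from Con was 0.0147, and within slide 2 it was -0.054. MS5 against MS2 gave 0.0102 and -0.0773, and MS2 against Con -0.0028 and 0.0295. A slide held as few as 2 arrays of a group, and MS5 replicates 9 and 14 were both on slide 2. With slide as a block the medians were -0.0216, -0.0263 and 0.0099 in that order.

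**Figure D4:**
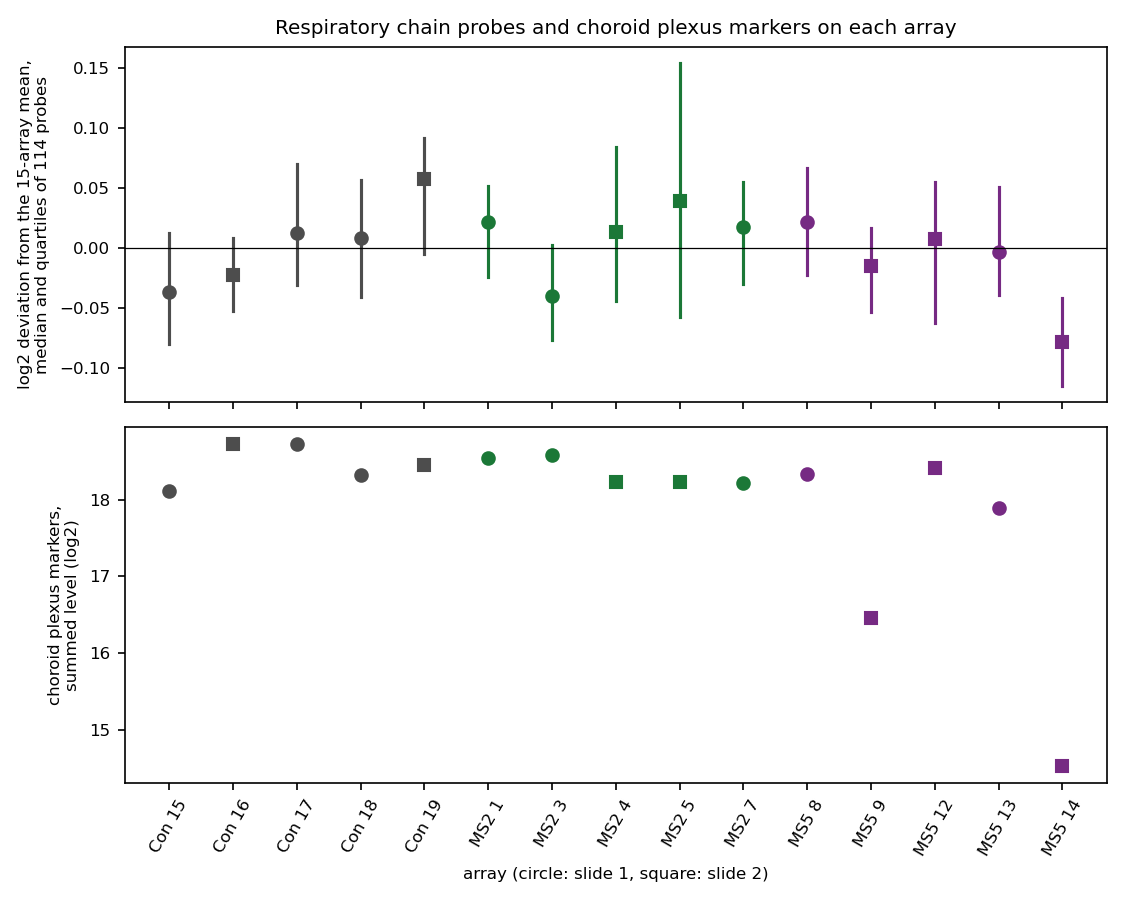
Top, log2 deviation of the 114 respiratory chain probes from their mean over 15 arrays, as the median and quartiles on each array. Bottom, summed log2 level of 20 choroid plexus markers on the same arrays. Circles are slide 1 and squares slide 2, and grey, green and purple are Con, MS2 and MS5. MS5 replicate 14 is lowest in both, at -0.0788 and 14.53.

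Probes of the same gene were compared with each other. For the 24 genes with several probes (57 probes), the range between probes of a gene had a median of 0.0475 in MS5 against Con, 0.0277 in MS2 against Con and 0.0423 in MS5 against MS2. All probes of a gene had the same sign at 11, 14 and 11 of 24 genes. In MS5 against MS2 the genes with a shared sign were all below 0, as were 72.8% of the members. Uqcrb, the ubiquinone-binding subunit of complex III, was among them. Ndufb11 had all 3 probes below 0 in MS5 against both other groups. So did Atp5h, Cox5b, Ndufb6, Ndufv3 and Uqcrh with all of their probes.

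**Figure D5:**
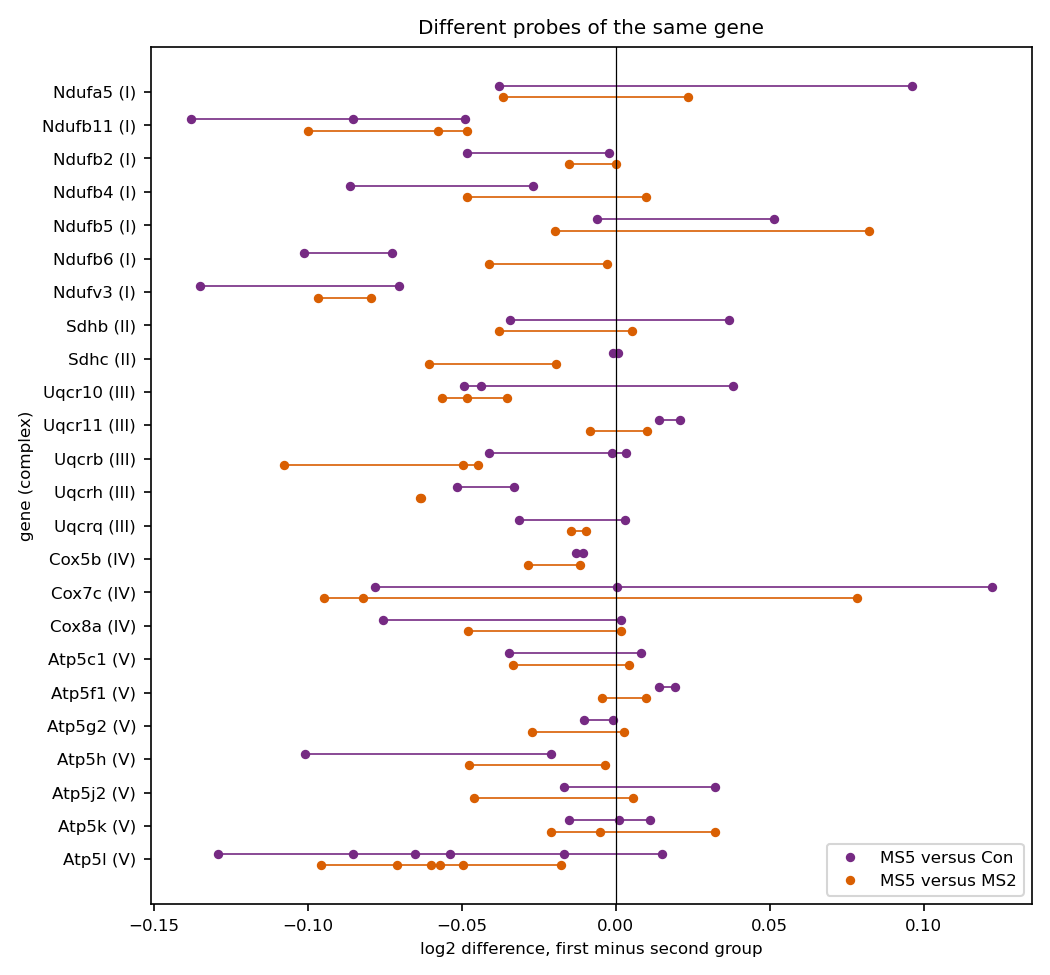
Log2 difference of MS5 from Con (purple) and from MS2 (orange) for each probe of the 24 genes with several probes, with a line from the lowest to the highest probe. Probes of Atp5l run from -0.13 to 0.02 and those of Cox7c from -0.08 to 0.12 in MS5 against Con.

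Genes around the chain were read from lists. Past the unadjusted p in MS2 against Con were 2.05% of all probes higher and 2.12% lower. The shares were 1.47% and 2.43% in MS5 against Con, and 1.72% and 2.25% in MS5 against MS2. These shares stand beside the passing genes of every list that follows. The subunits encoded by mitochondrial DNA were represented by 12 genes, with 5 of the probes placed by the array files on a nuclear copy on chromosome 1. In MS2 against Con 11 of 12 were above 0 (49% of all probes, median 0.134), and ND3 and ND4L passed the unadjusted test. ND3 differed by 0.15 (limma p = 0.0335, exact permutation p = 0.0238) and ND4L by 0.28 (limma p = 0.0464, exact permutation p = 0.127), each lost in 10 of 21 alternatives. In MS5 against Con all 12 were above 0 (50.2% of all probes, median 0.0673, lowest 0.0015) and 0 passed, at an unadjusted limma p. ND3 and ND4L are complex I subunits, and both were read by probes placed on chromosome 1, so their source is uncertain. Adjusted p were 0.970 for both.

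Ndufab1, the acyl carrier protein of complex I, falls outside the name pattern that defined the members. It was 9.19, 9.22, 9.31, 9.27 and 9.22 in Con. MS2 had 9.14, 9.09, 8.75, 9.17 and 9.01, and MS5 had 9.14, 9.05, 9.02, 9.18 and 8.96. All treated arrays lay below all Con arrays. This held at 0.519% of all probes in MS5 and 0.393% in MS2 (0.828% and 0.702% apart in either direction). The difference from Con was -0.21 in MS2 (interval -0.36 to -0.06, limma p = 0.0102, adjusted p = 0.970) and -0.17 in MS5 (interval -0.32 to -0.02, p = 0.0288, adjusted p = 1.00), each with an exact permutation p of 0.00794. Without MS5 replicate 14 the latter was -0.14 and not past the threshold, and this call was lost in 10 of 21 alternatives, over which it ran from -0.21 to -0.09. The MS2 call was lost in 1 of 21. It was the only one of 11 such genes to pass in either comparison. Of the 11, 10 were below 0 in MS5 against Con (49.8% of all probes, median -0.0432).

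Among 11 measured assembly factors of complexes I and II, Nubpl, which delivers iron-sulfur clusters to complex I, was the only one past the test in both comparisons with Con. It ran from 9.90 to 10.02 in Con, 9.80 to 9.92 in MS2 and 9.70 to 9.91 in MS5. The difference was -0.11 in MS2 (limma p = 0.0471, adjusted p = 0.970, exact permutation p = 0.0238) and -0.15 in MS5 (limma p = 0.00851, adjusted p = 1.00, exact permutation p = 0.0317). The former was lost in 14 of 21 alternatives and the latter in 3. Ndufaf4, a complex I assembly factor, passed between the doses at 0.10 (limma p = 0.0482, exact permutation p = 0.0556), and this was lost in 13 of 22 alternatives. None of 18 assembly factors of complexes III, IV and V passed an unadjusted limma p of 0.05 in any comparison.

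The regulators of mitochondrial biogenesis gave 17 measured genes. Ppargc1a, the coactivator PGC-1alpha, was 12.88, 12.77, 12.87, 12.46 and 12.54 in Con. MS2 had 13.07, 12.88, 13.35, 12.38 and 13.05, and MS5 had 13.05, 12.94, 12.90, 13.02 and 12.92. All MS5 arrays lay above all Con arrays, as at 0.309% of all probes. The difference of MS5 from Con was 0.27 (fold 1.20, interval -0.03 to 0.57, limma p = 0.0752, adjusted p = 1.00, exact permutation p = 0.00794). In MS2 it was 0.25 (interval -0.05 to 0.55), and without MS2 replicate 5, the dim array, it was 0.39 and past the unadjusted threshold. Gabpa, an ETS factor that binds promoters of respiratory genes, was the only regulator past the test, 0.13 higher in MS5 than in MS2 (limma p = 0.0464, exact permutation p = 0.0873), and this was lost in 16 of 22 alternatives. The list had 7 genes above 0 (50.2% of all probes) and 10 below (49.8% of all probes) in MS5 against Con, with a median of -0.0218.

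Of 17 citrate cycle genes, Idh2, the mitochondrial NADP-dependent isocitrate dehydrogenase, was lower in MS5 than in Con by 0.28 on the log2 scale (difference -0.28, interval -0.54 to -0.02, limma p = 0.036, adjusted p = 1.00, exact permutation p = 0.0952), with Con at 13.70 to 14.29 and MS5 at 13.56 to 13.93. It was lost in 8 of 21 alternatives, over which it ran from -0.52 to -0.08 (within slides 2 and 1). Dld, shared by the pyruvate and oxoglutarate dehydrogenases, was 0.10 higher in MS5 than in MS2 (limma p = 0.0472, exact permutation p = 0.0476), which was lost in 15 of 22 alternatives. None of 16 glycolysis genes passed an unadjusted limma p of 0.05 in any comparison. Of 19 genes of uncoupling proteins, carriers and antioxidant enzymes, Prdx3, a mitochondrial peroxiredoxin, was lower in MS2 than in Con (difference -0.11, limma p = 0.0497, exact permutation p = 0.103), which was lost in 13 of 21 alternatives, and 0 passed in the other comparisons at an unadjusted limma p.

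Promoters of the member genes were searched for short sequences that the rule did not use. RefSeq sequence from 250 bases before to 50 after the gene start (GRCm38.p6) was matched for 67 of 81 member genes and searched on both strands. The letters GCGCATGCG, a core bound by NRF1, a regulator of respiratory genes, stood in 8 of 67 member genes (11.9%) and 1.95% of 27025 genes. CCGGAAG, bound by ETS factors such as GABP, stood in 16 (23.9%) and 9.93%. AAGATGGCG, bound by YY1, stood in 7 (10.4%) and 1.64%, and GGGCGG, bound by Sp1, in 27 (40.3%) and 38.2%. The NRF1 core is shown in capitals with the bases around it, read 5′ to 3′ on the strand of the gene and so in some as its reverse complement. The holders chosen for printing are Atp5l and Ndufa11, which passed a test in MS5 against Con, and the core subunit gene Uqcrc1.
Atp5l (chr9:44920965-44920992, minus strand): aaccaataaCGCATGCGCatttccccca
Ndufa11 (chr17:56717692-56717720, plus strand): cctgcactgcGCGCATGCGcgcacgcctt
Uqcrc1 (chr9:108936668-108936696, plus strand): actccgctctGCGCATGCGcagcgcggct
These matches are descriptions of letters, and no binding was measured.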

How the data were processed

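Hippocampal mRNA of 15 pups, 5 each of Con, MS2 and MS5, was analysed. The authors deposited the Agilent scanner's intensity per spot (Feature Extraction 10.7.1.1) and a series table of log2 values, which they had background-adjusted with normexp and quantile normalized. This table was used for all values. Rebuilding it from the deposited intensity files (normexp with an offset of 50 on 62976 spots, quantile normalization, first spot of each probe) gave the same log2 values within 5.0e-09 at 55821 probes, of which 55681 were not controls. Quantile normalization fixes the overall distribution of each array, and the offset shrinks differences of dim probes. The number of arrays limits the precision. The 9 miR arrays hold no respiratory chain gene and were not used here.

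Fits were run in R (version 4.3.3) with the package limma, version 3.58.1. The 3 groups entered 1 fit over all probes (lmFit, eBayes), with Benjamini-Hochberg adjustment over all of them. The study's own threshold was 1.5-fold with an unadjusted p under 0.05. Exact permutation tests were two-sided over 252 assignments. The steps were tested on simulated data.

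Named genes were the tissue isoforms, the 8 smallest p per comparison, the smallest p per complex, core and X-linked subunits, and genes of the pathway lists. ND3, ND4L, Ndufaf4, Gabpa, Dld, Prdx3, Atp5h, Cox5b, Uqcrb, Uqcrh, Xist and the further probes of named genes were chosen after their values were seen. The members, marker lists and pathway lists were chosen with earlier results of these data known. A list used the brightest probe of each gene, and summed levels are the log2 of summed intensities. The alternatives were averaged spots, a normexp offset of 0, Agilent's processed intensity set to each array's 75th percentile, array weights, only probes well above background, slide as a block or each slide alone, only the groups compared, gene means and leaving out each array. Leaving out MS5 replicates 9 and 14 together, or MS2 replicates 4 and 5, and the count of intervals under every alternative, were added after seeing the data. Motif searches used RefSeq promoters of GRCm38.p6, and probe coordinates are those of the array files (mm9).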

Additional observations from a re-analysis of the deposited data

Results flagged for a closer look

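Over the named member and pathway probes, each counted once, and the array medians of the members, 147 groups of 5 arrays were examined for an array far from the others of its group, and 7 were found. Chance gives about 1 in 20 groups. Cox6a2 stood at 12.15 on MS2 replicate 4, against 10.73 on the nearest array of that group. Atp5j was highest there too, at 15.26 against 15.15. MS2 replicate 5, the array with the low spot signal, was lowest for Cox7b2 at 6.65 (nearest 7.01) and highest for Sdhb probe A_66_P116126 at 15.97 (nearest 15.76). MS5 replicate 14 was lowest for Atp5a1 at 16.12 (nearest 16.20) and for Cox5a at 16.47 (nearest 16.59). Con replicate 19 was highest for Cox4i1 at 17.18 (nearest 17.12).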

How the results depend on the processing

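The counts of members past an unadjusted p of 0.05 were 0, 3 and 1 for MS2 against Con, MS5 against Con and MS5 against MS2. In MS2 against Con they became 2 with array weights, 1 within slide 2, 1 with only the 2 groups compared and 1 without both MS2 replicates 4 and 5. In MS5 against Con they became 0 with an offset of 0, 0 with the processed signal, 6 with array weights, 1 with slide as a block, 5 with only the 2 groups and 0 without both MS5 replicates 9 and 14. In MS5 against MS2 they became 0 with an offset of 0, 0 with the processed signal, 2 with array weights, 3 with slide as a block, 2 and 3 within slides 1 and 2, 2 with gene means, 0 without both MS5 replicates and 0 without both MS2 replicates. With only the 2 groups compared it stayed 1, but the probe was Ndufb5 A_51_P201904 (higher) in place of Uqcrfs1. Leaving out single arrays gave 0 to 2, 1 to 5 and 0 to 4. In MS2 against Con it was 1 without Con replicate 17, MS2 replicate 5 or MS2 replicate 7, and 2 without MS2 replicate 3. In MS5 against Con the count was 1 without Con replicate 19, MS5 replicate 9 or MS5 replicate 14, and 5 without Con replicate 16. In MS5 against MS2 it was 0 without MS2 replicates 5 or 7 or MS5 replicate 9, 2 without MS5 replicate 12, 3 without MS5 replicate 8 and 4 without MS2 replicate 3. The cause was not tested.

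The median member difference moved beyond the spread between arrays within slide 2, to -0.054 in MS5 against Con and -0.0773 in MS5 against MS2. Leaving out single arrays gave 0.0022 to 0.0242, -0.0312 to -0.0001 and -0.0376 to -0.0111. The scanner's processed signal, which does not equalize the bright end, gave 0.0224, -0.0313 and -0.0547. The number of intervals within 0.32 fell to 73 of the members within slide 2 for MS5 against MS2. Elsewhere it was at least 78. With an offset of 0 it was at least 105 in each comparison, while the share of all probes was 33.9%, 35.2% and 34.9%. Of the named probes' values under alternatives, 942 of 1007, 929 of 1007 and 982 of 1055 kept their side of the threshold, and 0 values that passed it under an alternative or as reported changed sign. No paired analysis by litter was possible because litters were not given for single pups.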
